A study of Mus musculus with 4 samples.

Results

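Interleukin-23 (IL-23) and interleukin-12 (IL-12) receptor signalling was followed through 7 genes: the receptor chains Il23r, Il12rb1 and Il12rb2, the kinases Jak2 and Tyk2, and the transcription factors Stat3 and Stat4. They were chosen by name as the chains and first signalling steps of these receptors, and all 7 were among the 21027 genes counted in both replicates. Group 3 innate lymphoid cells (ILC3s) had been sorted from the lamina propria of the small intestine and profiled by BD Rhapsody single-cell RNA sequencing; the mice were 6 to 8 weeks old and carried a cre transgene that acts on both floxed alleles of Cxxc1 (Cxxc1flox/flox), a gene of the machinery that methylates histone H3 at lysine 4. The 4 labelled samples were 2 replicates with 2 sequencing libraries each, all of this genotype, so nothing was compared with Cxxc1-sufficient cells. No label ties the replicates to separate animals, so p-values cannot be taken to measure spread between animals. They measure how far class differences varied over these 2 replicates, joined with the spread of other genes, and this may be technical.

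IL-23 and IL-12 share a ligand subunit, encoded by Il12b, and a receptor chain, encoded by Il12rb1. Il12rb1 pairs with Il23r to bind IL-23 and with Il12rb2 to bind IL-12. Both receptors use the kinases JAK2 and TYK2, with STAT3 as the main factor downstream of IL-23 and STAT4 downstream of IL-12. In the gut IL-23 drives IL-22 and IL-17 production by ILC3s and Th17 cells, and IL-12 drives interferon-gamma production by ILC1s, natural killer cells and Th1 cells.

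Il23r and Il12rb2 are neighbours in the mouse genome. In GRCm38 Il12rb2 lies at chr6:67291318-67376188 and Il23r at chr6:67422932-67491855, both on the minus strand and 46.7 kb apart. Il12rb1 lies at chr8:70808449-70821424 on the plus strand. The 300 bases around each start site are shown for the adjacent pair because their transcripts went in opposite directions between ILC3s and T cells. The windows run from 250 bases before the start to 50 after it (RefSeq, GRCm38.p6, 5′ to 3′ on the minus strand), at chr6:67491806-67492105 for Il23r and chr6:67376139-67376438 for Il12rb2. Capitals mark the STAT motif TTCNNNGAA, searched on both strands and found in the Il12rb2 window.
Il23r: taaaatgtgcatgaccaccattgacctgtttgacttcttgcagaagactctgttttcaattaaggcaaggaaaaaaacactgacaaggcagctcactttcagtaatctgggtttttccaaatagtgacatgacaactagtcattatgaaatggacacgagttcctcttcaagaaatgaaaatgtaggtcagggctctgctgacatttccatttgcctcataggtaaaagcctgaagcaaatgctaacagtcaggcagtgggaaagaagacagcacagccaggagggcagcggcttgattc
Il12rb2: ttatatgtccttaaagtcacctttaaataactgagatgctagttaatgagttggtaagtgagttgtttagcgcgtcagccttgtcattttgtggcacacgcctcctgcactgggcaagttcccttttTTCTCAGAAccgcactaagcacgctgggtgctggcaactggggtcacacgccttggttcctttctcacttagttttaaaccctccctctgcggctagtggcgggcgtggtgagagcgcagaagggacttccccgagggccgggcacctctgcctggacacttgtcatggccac
The Il12rb2 window held 1 match to the STAT motif, starting at base 128, and the Il23r window held 0. Neither window held the T-box motif AGGTGTGA or the RUNX motif TGTGGT. Among 32851 promoter windows of this length, 8.3% held the STAT motif, 1.3% the T-box motif and 16.8% the RUNX motif. These matches describe letters and are not shown to be bound sites.

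The replicates gave 2077 and 4532 tagged cells with 11939862 and 12141164 unique molecular identifiers (UMIs, counted transcript molecules), of which 1906 and 4179 cells were used, with medians of 4200 and 2364 UMIs. Cells were gated on UMIs of marker genes that exclude all 7 genes described here. ILC3s numbered 343 and 1286 cells, split into 58 and 146 with an Ncr1 but no Ccr6 UMI (Ncr1-gated), 27 and 139 with a Ccr6 but no Ncr1 UMI (Ccr6-gated) and 258 and 997 with neither; 4 cells of replicate 2 held both and entered only the sums over all ILC3s. CD4 T cells numbered 144 and 942, and CD8 or γδ T cells 24 and 360. Cells with at least 9 of 10 stromal genes and no Ptprc UMI numbered 297 and 138, with medians of 8643 and 6314 UMIs. They are called stromal cells without Ptprc, or stromal cells where no class is named, and are given as a comparison for free RNA. This definition, set after the data were seen, leaves out stromal cells that carry lymphocyte RNA, so its values are low by construction. A wider class is therefore given beside the receptor chains. It held 651 and 311 cells with at least 3 stromal genes, under 3 of every other lineage list and outside the T cell gate. Of these cells 31.3% and 43.1% had a Ptprc UMI and 26.0% and 35.7% a CD3 or T cell receptor UMI. With exclusion only at 6 lineage genes, ILC3s with neither gate gene rose from 258 to 413 and from 997 to 1068. The wider class can thus hold lymphocyte transcripts of its own and does not measure free RNA alone. The replicates differed in composition: this wider stromal class made up 34.2% of replicate 1 and 7.44% of replicate 2. Of markers kept out of the gates, 6 of 6 for CCR6+ ILC3s and 3 of 4 for NCR+ ILC3s were highest in their own class in both replicates, as were 6 of 9 for ILC3s as a whole. Despite the sort and the gates, 60.3% and 54.8% of Ncr1-gated cells carried a UMI of a CD3 or T cell receptor gene, against 37.0% and 30.9% of Ccr6-gated cells. Transcripts of the floxed gene Cxxc1 stood at 52.7 and 47.0 CPM in ILC3s and 68.2 and 42.7 CPM in stromal cells, which does not check the deletion because the deleted segment is not given in the sources used here.

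Il23r, the chain specific to IL-23, was highest in ILC3s, and within them in the Ccr6-gated cells. Levels are given as CPM, the UMIs of a gene scaled to 1000000 UMIs of its class. Ccr6-gated ILC3s had 131.4 CPM (95% exact Poisson interval 73.6 to 216.8) in replicate 1 and 207.2 CPM (168.9 to 251.5) in replicate 2. ILC3s with neither gate gene had 121.5 and 142.4 CPM, and Ncr1-gated ILC3s had 95.9 (59.3 to 146.6) and 107.7 CPM (79.4 to 142.8). This order was the same in both replicates, although in replicate 1 the intervals of the 3 ILC3 classes overlapped. CD4 T cells had 18.4 CPM (7.93 to 36.2) and 20.3 CPM (14.8 to 27.3), and CD8 or γδ T cells 41.0 CPM (3 UMIs) and 18.7 CPM (16 UMIs). Stromal cells had 2.33 and 6.74 CPM without a Ptprc UMI and 36.7 and 36.9 CPM in the wider class, the latter above CD4 T cells. In both replicates every ILC3 class was above both T cell classes, although the interval of the 24 CD8 or γδ T cells of replicate 1 reached into the ILC3 range. The intervals of the CD4 and CD8 or γδ T cells overlapped.

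At least 1 Il23r UMI was found in 33.3% and 51.1% of Ccr6-gated, 22.4% and 24.7% of Ncr1-gated ILC3s, and 4.17% and 3.93% of CD4 T cells, against 1.68% and 4.35% of the deeper stromal cells. The wider stromal class had 14.6% and 14.8%. With every cell thinned to 1500 UMIs, the shares were 25.9% and 28.5% in Ccr6-gated and 13.8% and 16.8% in Ncr1-gated ILC3s, 2.86% and 2.56% in CD4 T cells, 0.338% and 1.48% in stromal cells without Ptprc and 6.54% and 6.55% in the wider class. Thinning kept 140 of 144 and 821 of 942 CD4 T cells, 58 of 58 and 143 of 146 Ncr1-gated and 27 of 27 and 137 of 139 Ccr6-gated ILC3s. At equal depth CD4 T cells, with 4 of 140 and 21 of 821 cells, thus lay above stromal cells without Ptprc and below the wider class. Neither class measures free RNA alone, and whether CD4 T cells exceed it was not tested.

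Il12rb2, the chain specific to IL-12, ran the other way and separated the ILC3 subsets most clearly. Ncr1-gated ILC3s had 242.0 CPM (181.3 to 316.5) and 213.2 CPM (172.5 to 260.6). ILC3s with neither gate gene had 153.3 (128.5 to 181.5) and 122.1 CPM (109.5 to 135.7), and Ccr6-gated ILC3s 35.0 CPM (9.55 to 89.7; 4 UMIs) and 20.3 CPM (9.74 to 37.4; 10 UMIs). The order of the 3 classes was the reverse of that for Il23r in both replicates. CD4 T cells had the most, at 656.8 CPM (582.9 to 737.5) and 511.2 CPM (481.5 to 542.2). CD8 or γδ T cells had 629.4 CPM (460.8 to 839.5) in replicate 1, from 24 cells, and 141.4 CPM (117.3 to 168.9) in replicate 2, so this class differed between replicates beyond counting error. The 7 CD4 T cell markers kept out of the gates summed to 2257 and 1070 CPM in this class, against 2726 and 2812 CPM in CD4 T cells, and its own 7 markers to 17431 and 40362 CPM. The part of CD4 T cell transcripts in the Il12rb2 and Jak2 values of replicate 1 was not tested. Stromal cells had 1.16 and 6.74 CPM, and the wider stromal class 34.9 and 41.5 CPM.

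The share of cells with an Il12rb2 UMI was 62.1% and 36.3% in Ncr1-gated and 11.1% and 7.19% in Ccr6-gated ILC3s, 54.2% and 45.6% in CD4 T cells, and 0.673% and 2.90% in stromal cells without Ptprc. The wider stromal class had 11.1% and 11.6%. At 1500 UMIs per cell the share was 41.4% and 24.5% in Ncr1-gated and 3.70% and 3.65% in Ccr6-gated ILC3s, and 45.0% and 38.6% in CD4 T cells. Stromal cells without Ptprc then had 0.676% and 0.741%, and the wider class 7.48% and 8.00%. At equal depth Ccr6-gated ILC3s thus lay between these stromal classes, and whether they exceed free RNA was not tested. The gene model of Il12rb2 overlaps that of Serbp1 on the opposite strand, and whether the counting used strand is not given in the sources used here. Serbp1 stood at 269.1 and 292.3 CPM in the same stromal cells in which Il12rb2 was near 0, and at 595.8 and 507.8 CPM in Ccr6-gated ILC3s.

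Il12rb1, the chain common to both receptors, was low in every class and varied less. Ccr6-gated ILC3s had 96.4 CPM (48.1 to 172.4) and 77.2 CPM (54.6 to 105.9), ILC3s with neither gate gene 55.6 and 57.1 CPM, and Ncr1-gated ILC3s 36.5 CPM (15.8 to 72.0) and 35.9 CPM (20.5 to 58.3). CD4 T cells had 73.5 and 56.3 CPM, and CD8 or γδ T cells 82.1 CPM (6 UMIs) and 29.2 CPM (25 UMIs). Stromal cells without Ptprc had 3 and 4 UMIs in all, and the wider stromal class 16.8 CPM (13.0 to 21.4) and 21.1 CPM (14.4 to 29.8). The intervals of the wider class overlapped those of Ncr1-gated ILC3s in both replicates and of CD8 or γδ T cells in replicate 2. The ILC3 order followed Il23r, not Il12rb2, in both replicates. However, the intervals of all 3 ILC3 classes overlapped each other in both, also those of the Ncr1-gated and Ccr6-gated cells. At 1500 UMIs per cell, 14.8% and 13.9% of Ccr6-gated and 3.45% and 5.59% of Ncr1-gated ILC3s had an Il12rb1 UMI. The wider stromal class had 4.05% and 4.00%, and whether Ncr1-gated ILC3s exceed free RNA was not tested.

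**Figure D1:**
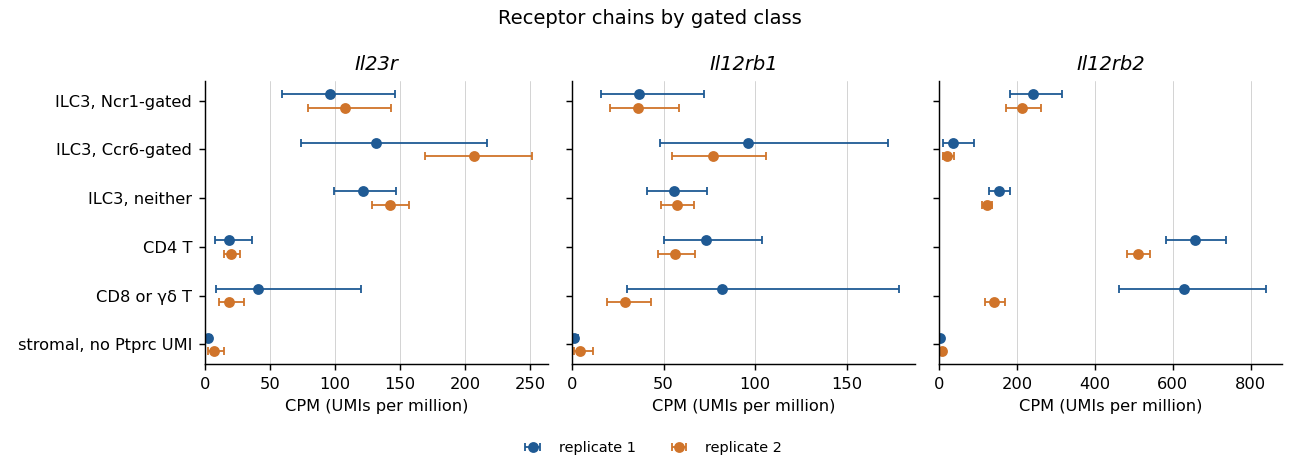
Level of Il23r, Il12rb1 and Il12rb2 (x axis, CPM; each panel has its own scale) in 5 gated classes and in stromal cells without a Ptprc UMI (y axis); points are replicates and bars are exact 95% Poisson intervals of the summed UMIs. Il23r falls and Il12rb2 rises from the Ccr6-gated to the Ncr1-gated ILC3s, and CD4 T cells, at 18.4 and 20.3 CPM of Il23r and 656.8 and 511.2 CPM of Il12rb2, lie far from the Ccr6-gated ILC3s in both.

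Jak2 (chr19:29251828-29313080, plus strand), the kinase that associates with the Il23r and Il12rb2 chains, was higher in CD4 T cells than in ILC3s. CD4 T cells had 470.8 CPM (408.5 to 539.8) and 357.4 CPM (332.7 to 383.5). Ncr1-gated ILC3s had 228.3 and 237.9 CPM, those with neither gate gene 226.0 and 146.4 CPM, and Ccr6-gated ILC3s 148.9 (86.8 to 238.5) and 125.9 CPM (96.6 to 161.4). CD4 T cells stood above all 3 ILC3 classes in both replicates without overlap of intervals. CD8 or γδ T cells had 492.5 CPM in replicate 1 and 199.8 CPM in replicate 2, the second of which lay among the ILC3 values. Jak2 was also found outside the lymphocytes: cells gated as myeloid had 446.7 and 272.7 CPM and stromal cells 61.7 and 42.7 CPM.

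Tyk2 (chr9:21104068-21131243, minus strand), the kinase that associates with the Il12rb1 chain, was too sparse to order the classes. Its level was between 12.2 and 61.3 CPM in the 10 sums of ILC3 and T cell classes. Ccr6-gated ILC3s gave both extremes, 61.3 CPM from 7 UMIs (24.7 to 126.4) for replicate 1 and 12.2 CPM from 6 UMIs (4.47 to 26.5) for replicate 2. No difference in Tyk2 was detectable at this depth. The model 1700084C06Rik, which overlaps Tyk2 on the opposite strand, had 0 UMIs in the Ncr1-gated and Ccr6-gated ILC3s and both T cell classes.

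Stat3 (chr11:100885098-100939540, minus strand), the main factor downstream of IL-23, was detected in most cells of every lymphoid class. Ncr1-gated ILC3s had 808.1 and 754.1 CPM, those with neither gate gene 724.5 and 635.4 CPM and Ccr6-gated ILC3s 665.9 and 570.8 CPM. CD4 T cells had 576.4 CPM (507.3 to 652.3) and 464.6 CPM (436.3 to 494.2), the lowest of the 5 classes in both replicates, in replicate 1 with intervals that overlapped those of the CD8 or γδ T cells and the Ccr6-gated ILC3s (524.6 to 833.4). CD8 or γδ T cells had 588.3 CPM (425.8 to 792.5) and 747.7 CPM (690.9 to 808.0). Stromal cells had 257.9 and 243.9 CPM, so Stat3 was present outside the lymphocytes too. The model of Stat3 overlaps Stat5a on the opposite strand, but Stat5a stood at 17.5 to 87.3 CPM in these classes.

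Stat4 (chr1:51987148-52107189, plus strand), the main factor downstream of IL-12, was highest in T cells in replicate 1 and near 0 in stromal cells, at 3.49 and 5.62 CPM. CD4 T cells had 353.7 and 265.1 CPM, and CD8 or γδ T cells 328.4 and 227.8 CPM. Ncr1-gated ILC3s had 246.5 and 246.9 CPM, those with neither gate gene 207.8 and 183.5 CPM, and Ccr6-gated ILC3s 87.6 CPM (42.0 to 161.1; 10 UMIs) and 180.8 CPM (145.2 to 222.5). Ccr6-gated ILC3s were the lowest class in both replicates, but in replicate 2 by less than the counting error against the cells with neither gene. Stat4 overlaps the models Gm28177 and Gm3940, which were not analysed here.

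**Figure D2:**
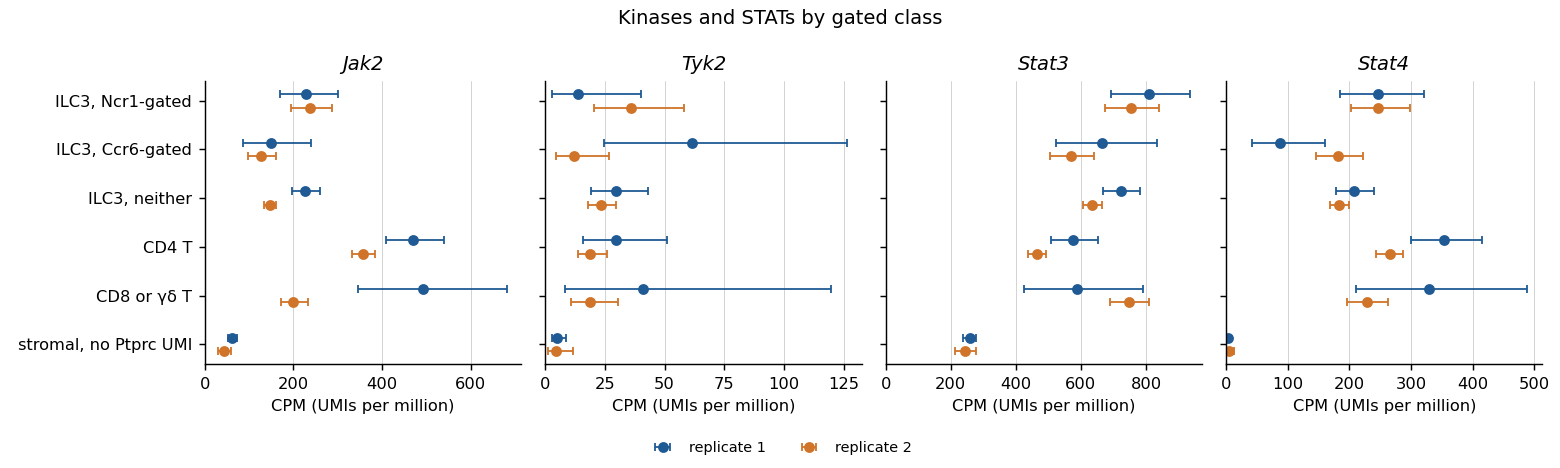
Level of Jak2, Tyk2, Stat3 and Stat4 (x axis, CPM; each panel has its own scale) in the same classes (y axis); points are replicates and bars are exact 95% Poisson intervals. Jak2 and Stat4 are highest in CD4 T cells in replicate 2, at 357.4 and 265.1 CPM, and the Tyk2 intervals of the ILC3 and T cell classes overlap within each replicate.

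The class sums were compared with edgeR's quasi-likelihood test over 7053 genes, with replicate as a block and p-values adjusted by Benjamini-Hochberg over all of these genes. Fold changes below are on the log2 scale with an approximate standard error (SE). Between Ncr1-gated and Ccr6-gated ILC3s, 1 of 7 members passed an adjusted p of 0.05, in a contrast in which 3.62% of all tested genes passed (1.9% higher and 1.72% lower in Ncr1-gated cells). It was Il12rb2, higher in Ncr1-gated cells by 3.16 ± 0.43 (SE; adjusted p = 7.46e-06), in the same direction in both replicates at 2.68 and 3.26. Il12rb1 was at -1.20 ± 0.40 (adjusted p = 0.0996), Il23r at -0.81 ± 0.28 (adjusted p = 0.117), Jak2 at 0.77 ± 0.26 (adjusted p = 0.110) and Stat4 at 0.65 ± 0.25 (adjusted p = 0.195). None of these 4 passed, though each had the same sign in both replicates. Stat3 was at 0.35 ± 0.19 and Tyk2 at 0.26 ± 0.65. When cells were excluded only at 6 genes of another lineage in place of 3, Il12rb1 passed too (-1.42, adjusted p = 0.0248). The median over the 7 genes was 0.35, beside 0.02 over all genes tested.

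CD3 or T cell receptor UMIs were more frequent in the Ncr1-gated class. In ILC3s without any such UMI, 23 and 66 Ncr1-gated cells against 17 and 96 Ccr6-gated cells, the Il12rb2 difference was 3.61 (adjusted p = 5.53e-07), as large as with them. Over the same cells Jak2 moved from 0.77 to 0.31 and Stat4 from 0.65 to 0.33, neither of which had passed in either case.

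Between CD4 T cells and ILC3s, taken as the equally weighted mean of the 3 ILC3 classes, 3 members were higher and 1 lower. In that contrast 34.5% of all genes passed (17.7% higher and 16.8% lower), so the count of 4 of 7 is to be read against a high background. Il12rb2 was higher by 2.74 ± 0.20 (adjusted p = 4.97e-13), Jak2 by 1.27 ± 0.16 (adjusted p = 4.53e-08) and Stat4 by 0.72 ± 0.16 (adjusted p = 0.000446). Il23r was at -2.67 ± 0.25 (adjusted p = 1.55e-10), with -2.47 and -2.57 within the replicates. Stat3 was at -0.31 ± 0.15 (adjusted p = 0.104), Il12rb1 at 0.28 ± 0.23 and Tyk2 at -0.08 ± 0.37, and these 3 did not pass. Stat3 passed when cells were thinned to 1500 UMIs (-0.42, adjusted p = 0.0267) and with exclusion at 6 lineage genes (-0.40, adjusted p = 0.0384). The chains specific to IL-23 and to IL-12, encoded by adjacent genes, thus differed in opposite directions, and the chain common to both receptors did not pass.

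CD8 or γδ T cells were set against the same ILC3 sums, so the 2 T cell contrasts are not independent of each other. Here 2 members were higher and 1 lower, beside 27.7% of all genes (13.6% higher and 14.1% lower). Il12rb2 was higher by 1.50 ± 0.27 (adjusted p = 4.95e-05), with 2.40 in replicate 1 and 0.89 in replicate 2. Il23r was at -2.66 ± 0.33 (adjusted p = 1.01e-07), with -1.52 and -2.70, the former from 3 UMIs. Jak2 was higher by 0.67 ± 0.20 (adjusted p = 0.00939), but this was not stable: the adjusted p was 0.246 in cells thinned to 1500 UMIs, 0.0550 with exclusion at 6 lineage genes and 0.0650 without the replicate block. Stat4 was at 0.44 ± 0.19 (adjusted p = 0.0893), Il12rb1 at -0.50 ± 0.34, Stat3 at 0.11 ± 0.16 and Tyk2 at -0.07 ± 0.50. Whether CD4 and CD8 or γδ T cells differ in any member was not tested. The medians over the 7 genes were 0.28 for CD4 T cells and 0.11 for CD8 or γδ T cells, beside 0.05 and 0.03 over all genes tested.

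**Figure D3:**
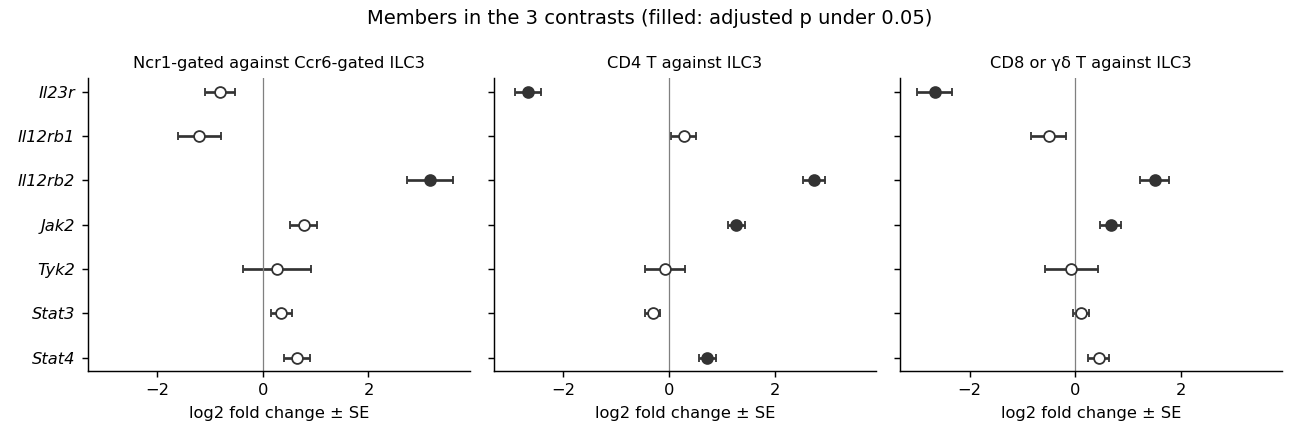
Log2 fold change ± SE (x axis) of the 7 genes (y axis) in the 3 contrasts, with filled points for an adjusted p under 0.05 by edgeR. Il12rb2 is filled and positive in all 3 panels, at 3.16, 2.74 and 1.50, and Il23r is filled and negative in the T cell panels only, at -2.67 and -2.66.

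A gate for ILC1 or natural killer cells took 2 and 22 cells, too few for a test. Its check markers went against that label: Klra8 and Klra4 were at 0 in both replicates, and 1 of 2 and 17 of 22 cells had a CD3 or T cell receptor UMI, so they are called here by their rule, cells gated on natural killer genes. None of the 22 cells in replicate 2 had an Il23r UMI, at their median depth of 1900.5 UMIs. That allows a share of cells with a UMI of up to 13.6% by an approximate limit of 3 cells. The exact 95% Clopper-Pearson limit is 15.4%. Neither limits the share that expresses the gene. None of the 22 cells had an Il12rb1 UMI. Il12rb2 was found in 11 of the 22 cells, at 478.7 CPM (292.4 to 739.3; 20 UMIs). Jak2 stood at 478.7 CPM from 20 UMIs and Stat4 at 215.4 CPM from 9 UMIs in these cells.

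A working receptor needs both chains in a cell, so cells with a UMI of both were counted and set beside the product of the single shares. In ILC3s Il23r and Il12rb1 were found together in 14 of 343 and 70 of 1286 cells (4.08% and 5.44%), where the product of the shares gives 15.8 and 59.2 cells. Il12rb1 and Il12rb2 were together in 8 and 38 ILC3s, where the product gives 17.5 and 39.8. Il23r and Il12rb2, which do not form a receptor together, were both found in 30 and 84 ILC3s, where the product gives 36.5 and 87.5. The ratio to the product was between 0.82 and 1.18 except for the IL-12 pair in replicate 1, at 0.46. These pooled values mix subsets that differ in Il23r and Il12rb2. The IL-23 pair was in 7.41% and 9.35% of Ccr6-gated and 1.72% and 2.74% of Ncr1-gated ILC3s. Its ratio was 0.86 and 0.73, and 0.56 and 1.08, and in cells with neither gene 0.94 and 1.28. For the IL-12 pair the ratio was 1.29 and 1.59 in Ccr6-gated, 0.60 and 1.29 in Ncr1-gated and 0.36 and 0.95 in cells with neither gene. At 1500 UMIs per cell the counts were 2 and 17 ILC3s for the IL-23 pair (product 4.66 and 17.1) and 3 and 12 for the IL-12 pair (5.58 and 12.6). The wider stromal class, at full depth, held the IL-23 pair in 3.23% and 1.93% of cells. It held the IL-12 pair in 1.84% and 1.93%, beside 2.33% and 2.95% of ILC3s. At 1500 UMIs that class held the IL-23 pair in 0.312% and 0.364% of cells, beside 0.588% and 1.40% of ILC3s. For the IL-12 pair it was 0.623% and 0.364%, beside 0.882% and 0.992%.

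In CD4 T cells the IL-12 pair was found together more often than the product in both replicates. Il12rb1 and Il12rb2 were both found in 21 of 144 cells (product 14.1) and 65 of 942 cells (product 49.8). Il12rb2 was present in 80.8% and 59.6% of the CD4 T cells with an Il12rb1 UMI and in 48.3% and 43.8% of those without. The ratio to the product was 1.49 and 1.31 at full depth and 1.41 and 1.15 at 1500 UMIs per cell, with 7 and 27 cells then holding both. Such an excess was not particular to CD4 T cells. At full depth the ratio was 2.26 and 1.79 in the wider stromal class. In CD8 or γδ T cells it was 0.92 and 1.84, from 2 and 7 cells with both chains. CD4 T cells with an Il12rb1 UMI were deeper, with medians of 3386 against 2571 and 2123 against 2071 UMIs. The IL-23 pair was rare in CD4 T cells, at 1 of 144 and 6 of 942 cells. Cells with Il23r also often held Il12rb2: 5 of 6 and 17 of 37, where the product gives 3.25 and 16.9 cells. Cells are not replicates, so these counts carry no test, and a UMI of a low gene is missed in many cells that express it.

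**Figure D4:**
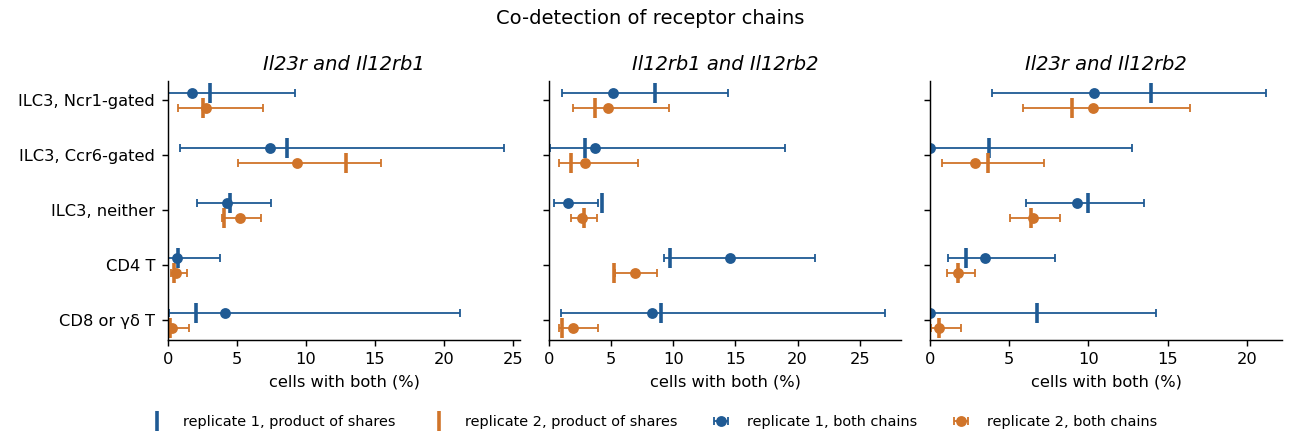
Share of cells with a UMI of both chains (x axis, percent; points with exact 95% Clopper-Pearson bars) in 5 gated classes (y axis) for 3 pairs of chains, by replicate; upright ticks mark the product of the single shares. In CD4 T cells the points for Il12rb1 and Il12rb2, at 14.6% and 6.90%, lie above their ticks in both replicates.

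Cytokine genes downstream of these receptors were compared between CD4 T cells with and without a UMI of Il12rb2 or Il23r. CD4 T cells with an Il12rb2 UMI had more Ifng, the interferon-gamma gene, at 2873 against 101.6 CPM in replicate 1 and 843.2 against 356.3 CPM in replicate 2. They had less Il17a, at 0 against 316.2 CPM and 33.1 against 282.6 CPM, although the Il17a UMIs without Il12rb2 came from 9.09% and 8.20% of cells. They also had less Il22, at 116.1 against 575.9 CPM and 300.2 against 571.3 CPM. The shares of cells with an Il22 UMI were nearer in replicate 1, at 24.4% against 30.3%. In replicate 2 CD4 T cells with an Il12rb2 UMI also had more Il21, at 141.3 against 14.0 CPM. The median depths of the cells compared were close, at 2764 and 2560.5 UMIs in replicate 1 and 2098 and 2056.5 in replicate 2. Taken from the cytokine side, Il12rb2 was at 939.2 and 740.0 CPM in CD4 T cells with an Ifng UMI and at 461.9 and 360.6 CPM in those without.

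The few CD4 T cells with an Il23r UMI, 6 and 37 cells, showed the other pattern in replicate 2. There Il22 was at 2201 CPM (1931 to 2499) against 350.0 CPM, Il17a at 828.9 CPM (666.5 to 1018.9) against 129.3 CPM, and Ifng at 239.5 against 605.3 CPM. In replicate 1, with 6 cells, Il22 was at 576.2 against 291.8 CPM, Il17a at 57.6 CPM from 1 UMI against 131.6 CPM, and Ifng at 633.9 against 1792 CPM. The Il22 of replicate 1 was 10 UMIs from 1 cell, 16.7% of the 6 against 27.5% of the others, so no difference is read there. Ifng was found in 66.7% of cells with Il23r against 36.2% in replicate 1 and in 40.5% against 39.2% in replicate 2, so the shares of cells did not follow its lower CPM. The Il17a UMIs of replicate 2 came from 16.2% of the 37 cells, against 4.75% of the others. The cells with Il23r had median depths of 2256 against 2691 UMIs in replicate 1 and 2617 against 2063 in replicate 2.

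In ILC3s Il22 was higher beside Il23r and lower beside Il12rb2. Those with an Il23r UMI, 106 and 409 cells, had more Il22, at 4279 against 2843 CPM and 4310 against 3252 CPM, with median depths of 3616 against 3326 and 3063 against 2684 UMIs. Those with an Il12rb2 UMI, 118 and 275 cells, had less Il22, at 2228 against 3902 CPM and 2524 against 3951 CPM, and more Ifng, at 138.9 against 37.7 CPM and 79.2 against 35.5 CPM. Il17a was lower beside Il12rb2, at 16.8 against 60.3 CPM and 2.33 against 33.8 CPM. ILC3s with an Il12rb1 UMI, 51 and 186 cells, had more Il17a, at 76.0 against 38.9 CPM and 94.9 against 12.8 CPM, and less Il12rb2, at 61.8 against 178.4 CPM and 85.4 against 125.9 CPM. Because these ILC3s pool the 3 subsets, the differences include those between subsets.

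**Figure D5:**
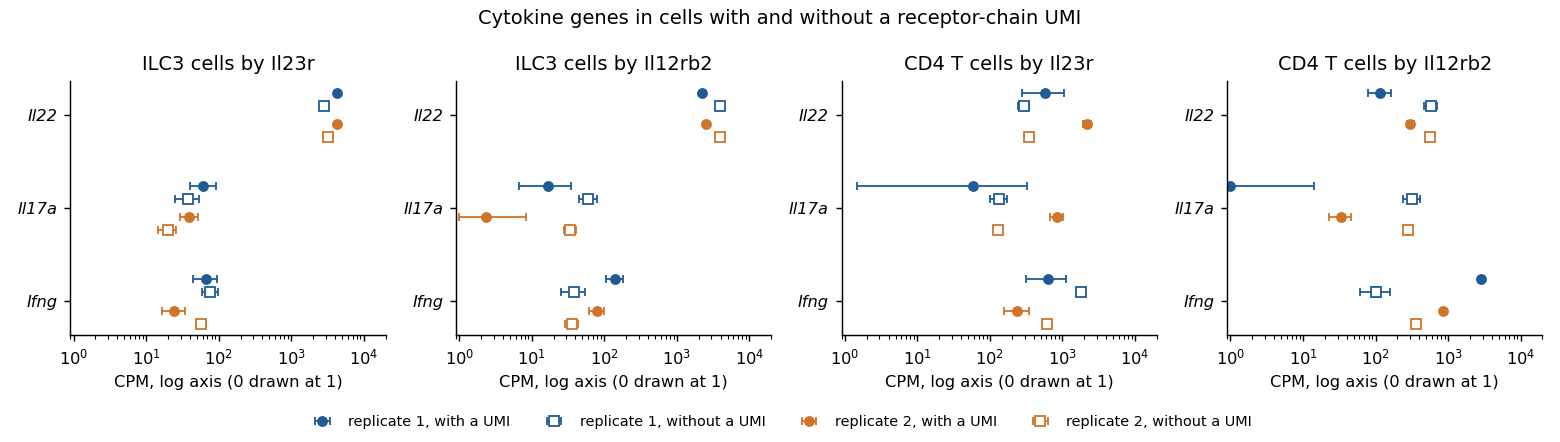
Level of Il22, Il17a and Ifng (y axis) in CPM on a log axis (x axis) in ILC3s and CD4 T cells with (filled circles) and without (open squares) a UMI of Il23r or Il12rb2, by replicate, with exact 95% Poisson bars. Ifng is higher and Il22 lower beside Il12rb2 in both cell types, as at 2873 against 101.6 CPM for Ifng in CD4 T cells of replicate 1, and Il22 is higher beside Il23r in ILC3s of both replicates and in CD4 T cells of replicate 2.

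Of 38 other genes of the pathway, 31 were tested. Between Ncr1-gated and Ccr6-gated ILC3s, 4 were higher, 3 lower and 24 did not pass, beside 1.9% higher and 1.72% lower over all genes (median 0.14 beside 0.02). Among the 11 tested targets, Ifng was higher in Ncr1-gated cells (146.1 and 123.4 CPM against 0 and 4 UMIs; adjusted p = 0.000360), as was Gzmb, a cytotoxic granule protease, by 2.42 ± 0.56 (adjusted p = 0.00686). Il17a and Il17f were lower, with 1 UMI of each in each replicate of the Ncr1-gated cells against 61.3 and 109.7 CPM of Il17a and 140.2 and 81.3 CPM of Il17f in Ccr6-gated cells (adjusted p = 0.000181 and 5.26e-06). Il22 was lower in Ncr1-gated cells, at -0.87 ± 0.22 (adjusted p = 0.0134), and Socs2, an inhibitor of cytokine signalling, was higher by 1.73 ± 0.44 (adjusted p = 0.0181). The calls for Gzmb, Il22 and Socs2 were lost with DESeq2 (adjusted p = 0.717, 0.243 and 0.558) and, by edgeR, without the replicate block (adjusted p = 0.141, 0.220 and 0.170), as was that for Ifng without the block (adjusted p = 0.0797). In cells without a CD3 or T cell receptor UMI Gzmb and Socs2 did not pass (edgeR, adjusted p = 0.143 and 0.483). Socs2 had 55 UMIs against 0 in replicate 1, and Gzmb differed by 0.63 in replicate 1 and 4.18 in replicate 2.

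Between CD4 T cells and ILC3s, 15 of the 31 were higher, 5 lower and 11 did not pass, beside 17.7% higher and 16.8% lower over all genes (median 0.42 beside 0.05). All 5 tested related receptors were higher, led by Il21r, the receptor of IL-21, at 480.0 and 514.0 CPM against 12.4 and 16.2 CPM in ILC3s (6.18 ± 0.23, adjusted p = 2.41e-20). Within the replicates Il21r was at 5.98 and 5.51. Among the targets Ifng was higher by 4.78 ± 0.25, with 5.96 and 4.11 within the replicates, and Il17a by 2.99 ± 0.34, with 2.20 and 3.13. Il10, which encodes an anti-inflammatory cytokine, had 13 and 69 UMIs in CD4 T cells against 1 and 16 in the more numerous ILC3s. Il22 was lower in CD4 T cells, at -3.00 ± 0.21, as were Csf2, which encodes GM-CSF, at -2.02 ± 0.24 and the interferon-induced factor Irf1 at -1.19 ± 0.15. In CD8 or γδ T cells 8 were higher, 5 lower and 18 did not pass, beside 13.6% higher and 14.1% lower over all genes (median 0.19 beside 0.03). They were led by Il21r at 6.12 ± 0.25, Gzmb at 5.17 ± 0.28 and Ifng at 3.65 ± 0.32. Il21r was close between the replicates, at 5.25 and 5.71, while Gzmb (4.14 and 6.00) and Ifng (5.50 and 2.37) differed widely. Il22 was at -3.39 ± 0.24, Csf2 at -3.25 ± 0.37 and Irf1 at -1.34 ± 0.17 there, while Il17a did not pass, at -0.04 ± 1.12. Within the replicates Il22 was at -4.98 and -2.97, and Csf2 had 0 and 15 UMIs.

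The ligand genes were nearly absent from the lymphocytes. Il12b, which encodes the subunit common to IL-12 and IL-23, had 84 UMIs (426.4 CPM) and 13 UMIs (48.6 CPM) in 36 and 48 myeloid cells, and 0 and 2 UMIs in ILC3s. Il23a, the IL-23-specific subunit, had 1 UMI in the myeloid cells of each replicate. Il12a, the IL-12-specific subunit, had 1 UMI in replicate 1 and 0 in replicate 2 in these cells.

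The genes whose levels across the 10 class sums were most like those of each chain are given as a description. For Il23r they were Lingo4, Acot7, Ccng2, Pi4k2a and Selenop, each with a Pearson's r of 0.98 on log2 CPM. For Il12rb2 they were Lztfl1 (r = 0.98), Tmx4, Ppp1cc, Tspan5 and Ccr9 (r = 0.96), the last of which encodes a gut-homing chemokine receptor. For Il12rb1 they were Usf1 (r = 0.91), Thoc7, Gbp2, Mapk8 and Arhgef6 (r = 0.85). The 5913 candidates were genes with a mean of at least 20 CPM, and the sums share 2 captures and so their depth, so these values carry no p.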

How the data were processed

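The deposited tables hold raw UMI counts by cell and gene; per the file headers the authors made them with version 1.8 of BD's WTA Multiplex Rhapsody pipeline (GRCm38, GENCODE vM19). That pipeline also called the deposited sample tags, which are names and no count, per the file headers. HISAT2 2.0.5 and Bowtie2 stand in the submitters' processing notes, but what they were used for is not given there. Tag 4 of a capture of 8064 cells was replicate 1 and tag 2 of a capture of 15793 cells replicate 2; 7 cell numbers occur in both captures.

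Cells needed at least 300 genes and no more than 25% mitochondrial UMIs, and Scrublet (scanpy 1.11.5) removed 39 (2.01%) and 6 (0.143%) cells, so doublets must be taken as present in replicate 2. Cells with at least 3 genes of a plasma or B, stromal, endothelial, epithelial or myeloid list were left out. T cells had at least 2 of 4 CD3 or Trac genes, with Cd4 alone or with Cd8a, Cd8b1 or Trdc. ILC3s had at least 2 of 5 genes, with Il1r1, Kit, Tmem176a and Tmem176b among them (the other, and results that need it, are not reported here), not Tmem176a and Tmem176b alone, and neither the T cell gate nor 2 of 6 type 2 genes.

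UMIs were summed per replicate and class and fitted with edgeR 4.0.16 (R 4.3.3; TMM, filterByExpr, replicate as a block, since the classes of a replicate come from the same tagged cells), two-sided, with a threshold of 0.05. The 10 sums of 5 classes left 4 residual degrees of freedom, to which the fit added 27.8 prior ones, so a small p-value depends mostly on the spread of other genes. The gate for ILC1 or natural killer cells, with under 10 cells in replicate 1, was left out of the fit. The SE was derived from the fold change and the F statistic. The fit was tested on simulated data. CPM intervals are exact Poisson and shares exact Clopper-Pearson at 95%, and both cover counting error only.

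Named genes are the 7 members, the up to 3 passing pathway genes with the largest change in each direction of each contrast, Il22, Il17a and Ifng, and the 5 genes most like each chain. The members and lists were chosen with earlier results of these data known. Alternatives were DESeq2 1.42.0, no low-count filter, no block, doublets kept, no CD3 or T cell receptor UMI in innate cells, thinning to 1500 UMIs, each replicate alone, and, chosen after seeing the data, exclusion at 6 lineage genes in place of 3.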

Additional observations from a re-analysis of the deposited data

How the results depend on the processing

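The number of members that passed between Ncr1-gated and Ccr6-gated ILC3s was 1 with DESeq2, without the low-count filter, with doublets kept, without CD3 or T cell receptor UMIs and in thinned cells. It was 2 with exclusion at 6 lineage genes, an alternative chosen after seeing the data, which also raised the cells used. In the fit without the replicate block the 3 contrasts gave 1, 4 and 2 members instead of 1, 4 and 3, the difference being Jak2 in CD8 or γδ T cells. For CD4 T cells the count was 4 or 5 and for CD8 or γδ T cells 2 or 3 over these alternatives. The share of all tested genes that passed moved more, from 1.83% to 3.76% between the ILC3 subsets. It was 16.4% to 36.4% for CD4 T cells and 11.8% to 29.8% for CD8 or γδ T cells, lowest without the low-count filter. Equal counts of members thus stand beside unlike shares. Within single replicates, Il12rb2 in Ncr1-gated over Ccr6-gated ILC3s was 2.68 and 3.26, and Jak2 in CD8 or γδ T cells over ILC3s 1.22 and 0.42. Thinning left Tyk2 untested, since fewer UMIs passed the filter. No alternative could give a test for the gate of ILC1 or natural killer cells. The depth limits Tyk2 everywhere and every gene in the 24 CD8 or γδ T cells and 27 Ccr6-gated ILC3s of replicate 1.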
